A study of Mus musculus with 6 samples.

Results

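Inflammatory monocyte markers were described in splenic red pulp macrophages from mice lacking Bach2 and from wild-type mice. The 9 genes were Ly6c1, Ly6c2, Plac8, F13a1, Fn1, Vcan, Ms4a4c, Thbs1 and Cd14. They were taken as a list of gene symbols, and their probes were found through the RefSeq accession that the array annotation gives for each probe. Of the 9 genes, 8 had a probe, and they had 15 of the 55681 probes on the array. Ly6c2 had no probe under its own accession and has no level here. None of the 15 probes passed the test of Bach2 knockout against wild type, and neither did any other of the 55681. Of the 15, 9 had a mean above wild type and 6 a mean below it, beside 56.2% and 43.8% of all probes. Counted by the brightest probe of each gene, 3 of the 8 genes had a mean above wild type and 5 a mean below it.

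RNA came from 3 Bach2 knockout mice and 3 wild-type mice, all of strain C57BL/6 and 8 to 9 weeks old, and the RNA of each mouse was hybridised to an array of its own in Cy3. The 3 knockout mice and wild-type replicates 1 and 2 were male, and wild-type replicate 3 was female. Bach2 is a transcription repressor that binds Maf recognition elements. The sources used here do not give the knockout allele, the cells that carry it or the surface markers of the cell sort.

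Classical, or inflammatory, monocytes leave the bone marrow through the chemokine receptor Ccr2, carry a high level of Ly6C on the surface and enter inflamed tissue, where they can turn into macrophages or dendritic cells. Patrolling monocytes are their Ly6C-low, Cx3cr1-high relatives, which survey vessel walls. The spleen holds a reservoir of monocytes in the red pulp, the compartment in which red pulp macrophages take up aged red blood cells. Of the markers, Ly6c1 and Ly6c2 encode the surface protein Ly6C, Ms4a4c a membrane-spanning protein, and Cd14 the co-receptor that hands bacterial endotoxin to Tlr4. Plac8 encodes a small cysteine-rich protein of myeloid and lymphoid cells. F13a1 encodes the A subunit of the enzyme that cross-links fibrin, and Fn1, Vcan and Thbs1 encode the matrix proteins fibronectin, versican and thrombospondin-1.

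Ly6c1 and Ly6c2 are neighbours on chromosome 15 and close copies of each other, so the missing Ly6c2 probe bears on how the Ly6c1 probes can be read. The promoter windows of the pair, 250 bases before to 50 bases after the gene start on the minus strand, are shown from RefSeq on GRCm38.p6. Most of a window lies before the gene start, so the likeness of the windows does not tell what the probes take up. The RefSeq table gives each gene 2 such windows, and those with the longest shared run are printed, chr15:75048614-75048913 for Ly6c1 and chr15:75111888-75112187 for Ly6c2. Capitals mark GAGGAAGT, the purine-rich core that factors of the ETS family such as PU.1 bind.
Ly6c1: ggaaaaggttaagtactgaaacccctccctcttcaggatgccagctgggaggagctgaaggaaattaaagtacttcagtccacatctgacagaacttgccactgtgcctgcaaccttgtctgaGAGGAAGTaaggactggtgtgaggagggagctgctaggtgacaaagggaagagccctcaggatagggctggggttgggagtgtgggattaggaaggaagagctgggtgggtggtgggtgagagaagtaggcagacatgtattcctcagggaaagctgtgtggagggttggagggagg
Ly6c2: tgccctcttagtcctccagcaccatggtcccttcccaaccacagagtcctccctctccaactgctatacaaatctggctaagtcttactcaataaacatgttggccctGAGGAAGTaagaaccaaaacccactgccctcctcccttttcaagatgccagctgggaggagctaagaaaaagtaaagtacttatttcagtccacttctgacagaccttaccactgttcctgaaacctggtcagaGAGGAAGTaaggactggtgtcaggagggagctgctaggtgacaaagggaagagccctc
That run is 37 bases long, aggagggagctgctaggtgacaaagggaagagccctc, and a local alignment of the 2 windows held 159 identical bases in 191 columns (83.2%). GAGGAAGT, searched on both strands, was in 4 of 10 windows of 6 member genes (windows of F13a1, Ly6c1 and Ly6c2), against 3.20% of all 32851 windows of this length. The Maf recognition core TGANTCA, searched on both strands, was in 0 of these 10 windows, against 7.81% of all windows. The 10 windows are not independent, since Ly6c1 and Ly6c2 have 2 each and are close copies. A share of these windows is therefore no count of separate genes, and it was not tested against the share of all windows. A match describes the letters of the window and no binding. The probe sequences were not used here, so whether the Ly6c1 probes also take up Ly6c2 RNA was not tested.

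Across the series, an array had 37.5% to 51.5% of its spots well above background, and its 75th percentile of processed signal lay between 865.2 and 3172.1. A level below is the log2 processed signal less that percentile, and a difference is the knockout mean minus the wild-type mean of levels. Levels of different probes are not comparable. The single slide carried the knockout mice in its array row 2 and the wild-type mice in row 1, and these rows cannot be told apart from the genotypes. Both genotypes were present in every one of its 3 array columns, 1 mouse each, and differences within a column are given for the members. Of all 55681 probes, 0 passed an adjusted p of 0.05 in limma (0%), the smallest adjusted p was 0.701, and 492 (0.884%) had an unadjusted limma p under 0.05, 269 higher and 223 lower in knockout (865 higher and 245 lower with each array centred on its median instead). The brighter Bach2 probe had levels of -2.42, -3.90 and -1.41 in knockout and -1.09, -0.21 and -1.53 in wild type, a difference of -1.63 ± 0.76 (SE, limma adjusted p = 1.0), and knockout replicate 3 lay among the wild-type mice. That probe was well above background on 2 knockout and 3 wild-type arrays, and its lowest value, of knockout replicate 2, was not. The sources used here do not place the deleted part relative to this probe, so it does not check the labels, and the second Bach2 probe was below the background limit throughout.

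Of the 15 member probes, 11 were well above background on all 6 arrays, 1 on 3 arrays, and 3 on none. The 11 include Ms4a4c A_66_P106388, whose outlier spot of wild-type replicate 2 counts as above background here but gives no level. Of all 15, 9 had a higher and 6 a lower mean in knockout, against 56.2% and 43.8% of all probes, and of the 11 the split was 6 and 5. The median difference of the 15 probes, among them the 3 that were on no array well above background, was 0.23, beside 0.09 for all probes. With 1 probe per gene, the brightest, the balance went the other way: 3 of 8 genes had a higher and 5 a lower mean in knockout. Of the 6 whose level averaged 0 or more, 2 were higher and 4 lower, beside 38.2% and 61.8% of all genes at that level. The median difference of these 6 was -0.26, beside -0.10 for all 8024 genes at that level, so the markers as a group had no direction that held for both ways of counting. All 15 limma intervals (95%) included 0, the adjusted p was 1.0 for each member, and 0 members had an unadjusted limma p under 0.05 (smallest 0.076). With 3 mice against 3, an exact permutation test of a single probe cannot go below 0.1. The genotypes did not overlap at 2 member probes that were higher in knockout (1 of Plac8 and 1 of Ms4a4c), against 0.695% of all probes, and at 1 that was lower (Vcan), against 1.9% of all probes. Each of these 3 probes has a partner probe of the same gene at which the genotypes overlapped. In RNA of sorted cells, fewer cells of a type and less RNA per cell cannot be told apart.

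**Figure D1:**
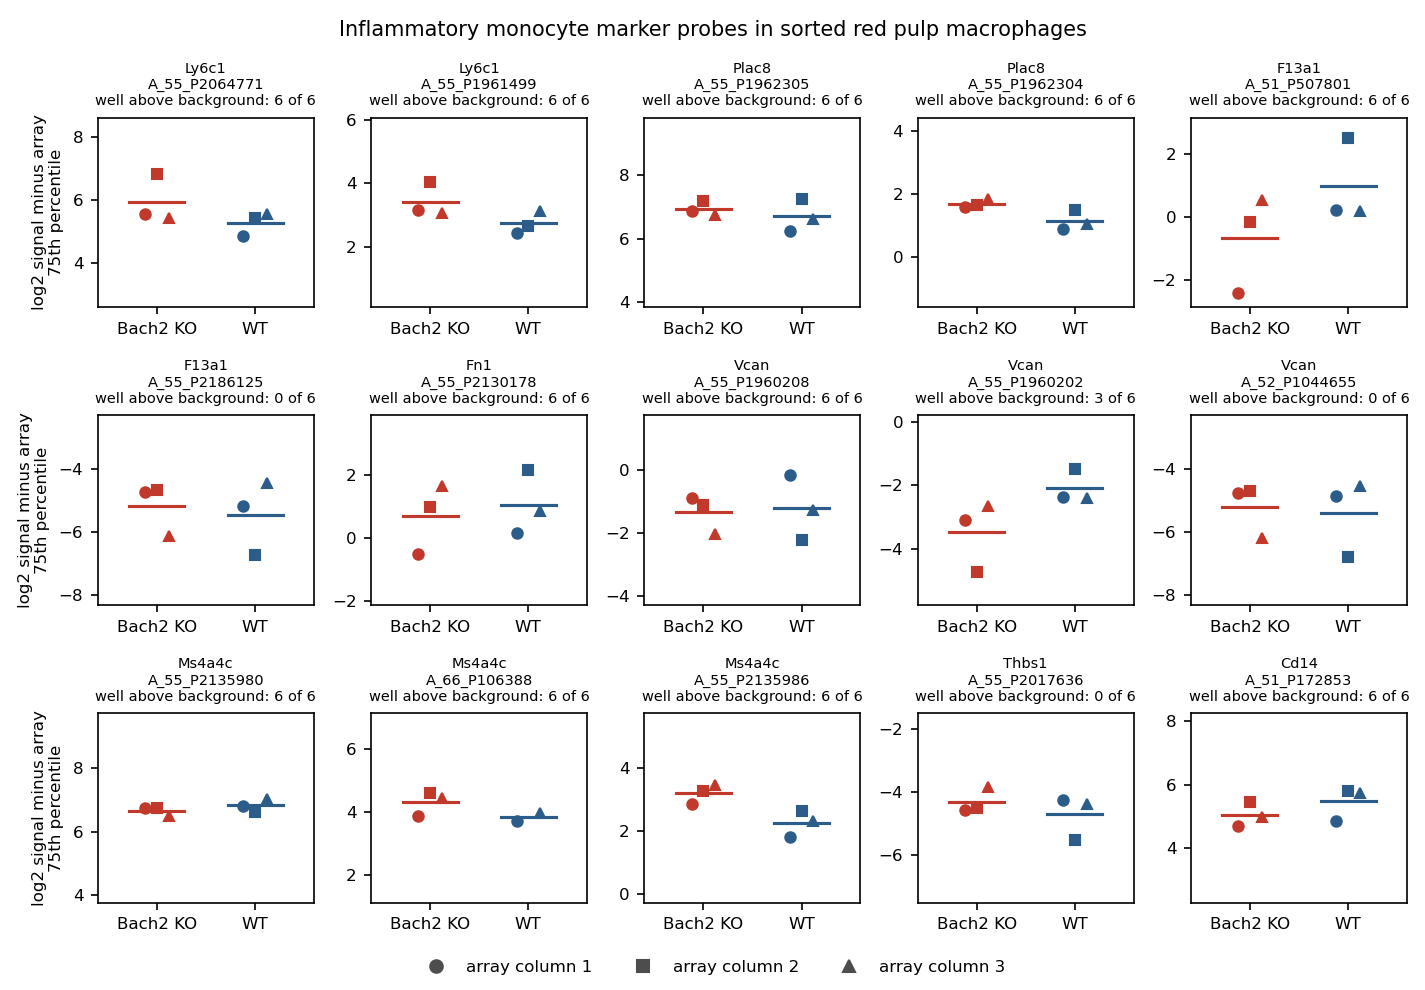
Each panel is 1 member probe, with the log2 signal, less the 75th percentile of its array, on the vertical axis, the 3 knockout mice at the left and the 3 wild-type mice at the right. Symbols give the array column and lines the genotype means. The genotypes are apart at 1 Plac8, 1 Ms4a4c and 1 Vcan probe, and the F13a1, Fn1 and Vcan panels spread most within a genotype.

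**Figure D2:**
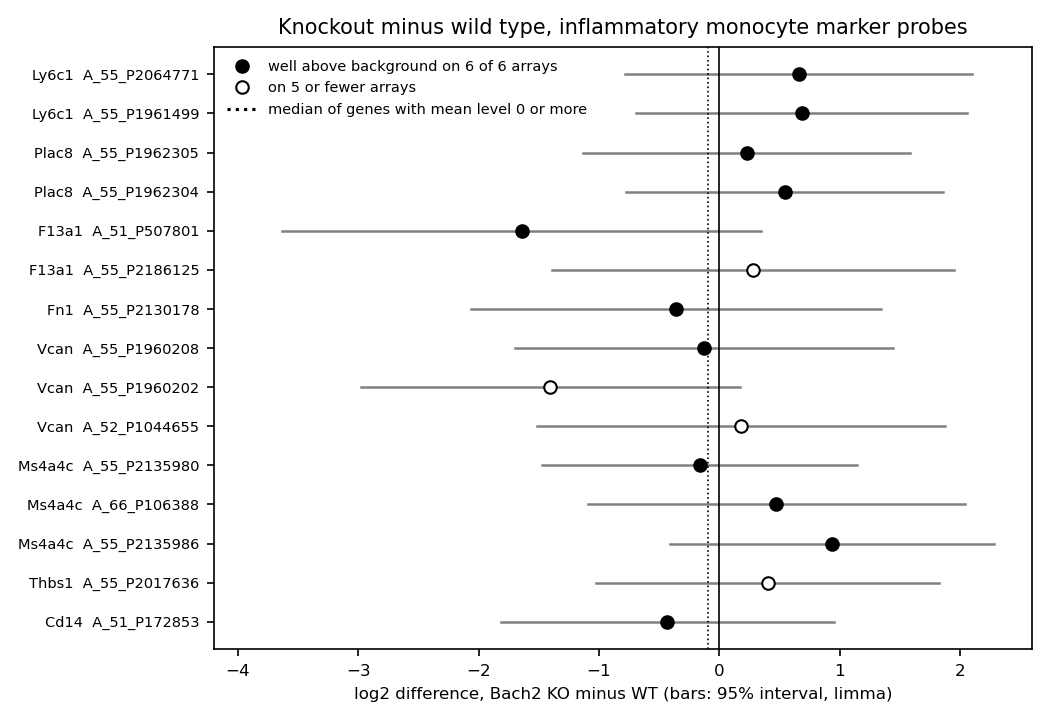
Log2 difference, Bach2 knockout minus wild type, of the 15 member probes with the 95% limma interval. Filled points are probes well above background on all 6 arrays, the dotted line is the median difference of the 8024 genes whose level averaged 0 or more, and all 15 intervals include 0.

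Ly6c1 encodes the GPI-anchored surface protein by which inflammatory monocytes are sorted, and endothelial cells and some T cells carry it too. Its brighter probe, A_55_P2064771, had levels of 5.55, 6.83 and 5.42 in knockout, against 4.85, 5.42 and 5.54 in wild type. Knockout replicate 2 stood above all other mice, while the other knockout mice lay beside the upper wild-type levels, so the genotypes overlapped. The difference in level was 0.66 ± 0.66 (SE), a 1.58-fold ratio of knockout to wild type with a log2 interval from -0.78 to 2.10. Within array columns 1 to 3 the differences were 0.70, 1.41 and -0.12, so the third column went slightly the other way. The second probe, A_55_P1961499, had levels of 3.16, 4.03 and 3.08 in knockout and 2.44, 2.66 and 3.11 in wild type, with a difference of 0.69 ± 0.63 (SE) and the same knockout mouse on top. Both Ly6c1 probes thus gave the same direction and the same order of array columns, and neither passed the test.

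Ms4a4c belongs to a family of membrane proteins whose genes lie side by side on chromosome 19, and its 3 probes did not give 1 direction. The probe A_55_P2135980 had levels of 6.75, 6.75 and 6.50 in knockout and 6.82, 6.62 and 7.04 in wild type, and its difference was -0.16 ± 0.60 (SE). It varied 1.45-fold over the 6 arrays, the narrowest range among the member probes. The probe A_55_P2135986 had levels of 2.86, 3.26 and 3.45 in knockout, against 1.81, 2.65 and 2.31 in wild type. All 3 knockout mice lay above all 3 wild-type mice there, with a difference of 0.94 ± 0.62 (SE), a log2 interval from -0.41 to 2.29 and column differences of 1.06, 0.62 and 1.14. The probe A_66_P106388 had levels of 3.90, 4.62 and 4.46 in knockout and of 3.73 and 3.96 in wild-type replicates 1 and 3, while its spot was an outlier on the array of wild-type replicate 2 and was left out. Its difference was 0.48 ± 0.71 (SE), from 2 wild-type values, and the genotypes overlapped. Whether the 3 probes read different transcripts of Ms4a4c was not tested.

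Cd14 is the lipid-anchored co-receptor of monocytes and macrophages for endotoxin. Its probe had levels of 4.70, 5.44 and 4.98 in knockout and 4.86, 5.81 and 5.74 in wild type. Knockout replicates 2 and 3 lay between the wild-type mice, and the difference was -0.43 ± 0.63 (SE), with a log2 interval from -1.81 to 0.95. The difference was below 0 in each array column, at -0.16, -0.36 and -0.77, and it did not pass the test.

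Plac8 was measured by 2 probes that gave the same sign and different overlap. The brighter, A_55_P1962305, had levels of 6.88, 7.20 and 6.75 in knockout and 6.24, 7.26 and 6.63 in wild type, a difference of 0.23 ± 0.62 (SE). The other, A_55_P1962304, had levels of 1.58, 1.64 and 1.84 in knockout, against 0.90, 1.48 and 1.04 in wild type. All knockout mice were above all wild-type mice at that second probe, with a difference of 0.54 ± 0.60 (SE) and column differences of 0.68, 0.16 and 0.80. At the brighter probe 1 wild-type mouse, replicate 2, was the highest of all 6.

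F13a1, which classical monocytes, some tissue macrophages and the platelet lineage express, varied most among the member probes. The probe A_51_P507801 had levels of -2.42, -0.17 and 0.54 in knockout and 0.20, 2.49 and 0.18 in wild type, a 30.1-fold range over the 6 arrays. Knockout replicate 1 was the lowest and wild-type replicate 2 the highest, while knockout replicate 3 lay above 2 of the wild-type mice. The mean level was -0.69 ± 1.54 in knockout and 0.96 ± 1.33 in wild type (SD, n = 3 each), a difference of -1.64 ± 0.91 (SE, limma adjusted p = 1.0) with a log2 interval from -3.63 to 0.35. Within array columns the differences were -2.62, -2.67 and 0.36, so the third column went the other way. The second probe, A_55_P2186125, was well above background on 0 of 6 arrays and gives no fold. Pf4, the platelet chemokine, had levels of 2.38, 4.08 and 1.73 in knockout and 4.88, 5.76 and 2.09 in wild type, and its column differences were -2.50, -1.68 and -0.36. The list of platelet and megakaryocyte markers is set beside F13a1 for this reason. Of its 14 genes, 1 had a higher and 13 a lower mean in knockout. Only 8 were well above background on at least 3 arrays, and 3 of the 13, among them the integrin Itga2b, on 0 of 6 arrays. Of the 5 at a level of 0 or more, 1 was higher and 4 lower, beside 61.8% lower among the 8024 genes at that level. The summed level of the list was 52.9 to 86.4 in knockout and 51.9 to 145.8 in wild type. In that list 0 genes passed the adjusted limma test, and the platelet lipoxygenase gene Alox12 differed by -1.96 ± 0.74 (SE) and the receptor gene Treml1 by -1.77 ± 1.03 (SE). Alox12 was well above background on 1 knockout and 3 wild-type arrays and Treml1 on 2 of each, so both differences include values near background. The part of platelet RNA in the F13a1 values was not tested.

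Among the matrix genes, fibronectin (Fn1) had levels of -0.49, 0.98 and 1.64 in knockout and 0.18, 2.17 and 0.85 in wild type. The genotypes overlapped over most of their range, with a difference of -0.36 ± 0.78 (SE), a log2 interval from -2.06 to 1.35 and column differences of -0.67, -1.19 and 0.79. Fn1 and F13a1 therefore had the same signs in each array column, below 0 in the first pair of columns and above 0 in the third.

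Versican (Vcan), a large proteoglycan that monocytes secrete, had 3 probes. The probe A_55_P1960208, well above background on all arrays, had levels of -0.88, -1.12 and -2.05 in knockout and -0.16, -2.23 and -1.28 in wild type, a difference of -0.13 ± 0.72 (SE). The probe A_55_P1960202 had levels of -3.08, -4.73 and -2.65 in knockout and -2.36, -1.48 and -2.41 in wild type. All knockout mice lay below all wild-type mice there, with a difference of -1.40 ± 0.72 (SE) and a log2 interval from -2.98 to 0.17, but the probe was well above background only on 1 knockout array (replicate 3) and 2 wild-type arrays (replicates 1 and 2). The third Vcan probe and the single probe of Thbs1, the gene of the adhesive matrix and platelet protein thrombospondin-1, were well above background on 0 of 6 arrays.

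**Figure D3:**
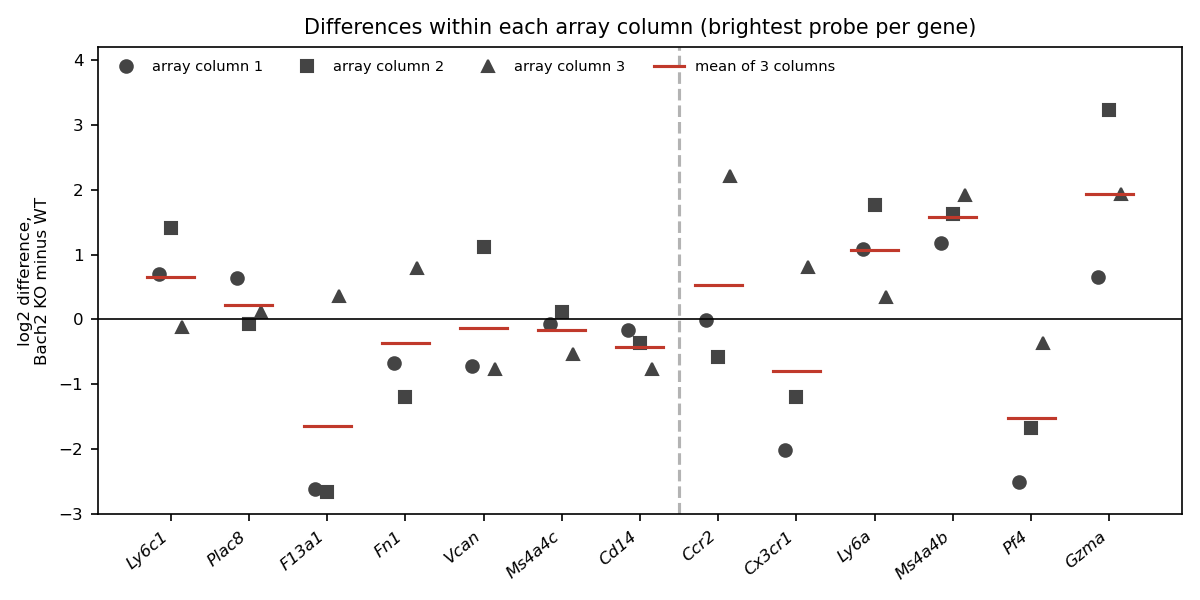
Log2 difference, Bach2 knockout minus wild type, between the 2 mice of each array column, for the brightest probe of 7 members (left of the dashed line) and of 6 other genes (right of it). Symbols are array columns and red lines the mean of the 3 columns. F13a1 has columns at -2.62 and -2.67 and the third at 0.36, whereas Ly6a and Ms4a4b have all 3 columns above 0.

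Other genes of classical monocytes gave both directions. Of 30 such genes, 13 had a higher and 17 a lower mean in knockout, 0 passed the adjusted limma test, and the median difference of the 28 whose level averaged 0 or more was -0.18, beside -0.10 for all 8024 genes at that level. Of those 8024 genes, 38.2% had a higher and 61.8% a lower mean in knockout. Ccr2, the receptor that brings monocytes out of the marrow, had levels of -0.87, 0.38 and 1.77 in knockout and -0.86, 0.96 and -0.44 in wild type, a difference of 0.54 ± 0.81 (SE). Its knockout and wild-type values overlapped, and only the third column had a difference above 0 (column differences -0.01, -0.58 and 2.21). The calcium-binding protein gene S100a6 differed by 0.74 ± 0.77 (SE) and the growth factor receptor Csf1r by -0.59 ± 0.64 (SE), or by -0.26 without wild-type replicate 3. The haptoglobin gene Hp had levels of 2.29, 5.23 and 2.49 in knockout and 2.63, 5.12 and 2.88 in wild type, so replicate 2 was highest in both genotypes. Itgam, the integrin chain CD11b, differed by -0.92 ± 0.76 (SE) at its brightest probe and by -0.26 there without wild-type replicate 3, and its probes differed in sign.

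Ly6a, which encodes the surface protein Sca-1 and lies beside Ly6c1 on chromosome 15, was the single gene of that list, among those at a level of 0 or more, whose genotypes did not overlap, against 0.785% of the 8024 genes higher in knockout without overlap. Its levels were 4.84, 5.60 and 4.55 in knockout and 3.76, 3.84 and 4.19 in wild type, a difference of 1.06 ± 0.62 (SE). The difference was above 0 in each array column and 2.09-fold on average, and the limma adjusted p was 1.0. In the authors' deposited table, which holds 279 probes and no member probe, Ly6a stood at 0.44, 1.19 and 0.21 in knockout and at -0.63, -0.50 and -0.21 in wild type, as centred log2 values.

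Across the Ly6 family, 14 of 16 genes had a probe, of which 8 had a higher and 6 a lower mean in knockout, 0 passed the adjusted limma test, and 5 averaged a level of 0 or more, with a median difference of 0.19. Ly6c2 and the neutrophil gene Ly6g had none. Ly6f had levels of -1.78, 0.38 and -0.40 in knockout and -2.67, -1.03 and -1.47 in wild type, a difference of 1.12 ± 0.76 (SE). It was well above background on 3 knockout and 2 wild-type arrays, and the genotypes overlapped. Ly6d differed by 0.19 ± 0.67 (SE), Ly6i by 0.62 ± 0.74 (SE), Ly6e by -0.56 ± 0.64 (SE) and Ly6k by -0.76 ± 0.71 (SE), so the family had no common direction.

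Of the Ms4a family, 15 of 17 genes had a probe, of which 10 had a higher and 5 a lower mean in knockout, 0 passed the adjusted limma test, and the median difference of the 7 at a level of 0 or more was 0.12. Ms4a4b, the next gene to Ms4a4c on chromosome 19 and in mouse a gene of T cells, had levels of 4.67, 5.52 and 4.57 in knockout and 3.49, 3.91 and 2.65 in wild type. All knockout mice were above all wild-type mice, with a difference of 1.57 ± 0.65 (SE, limma adjusted p = 1.0) and a 2.98-fold ratio. Of the 8024 genes at a level of 0 or more, 0.785% were higher in knockout without overlap. Ms4a6c and Ms4a6d, which monocytes and macrophages express, differed by 0.12 ± 0.65 (SE) and 0.20 ± 0.67 (SE), and Ms4a8a by -0.83 ± 0.68 (SE). The B cell gene Ms4a1, which encodes CD20, differed by 0.55 ± 0.73 (SE).

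**Figure D4:**
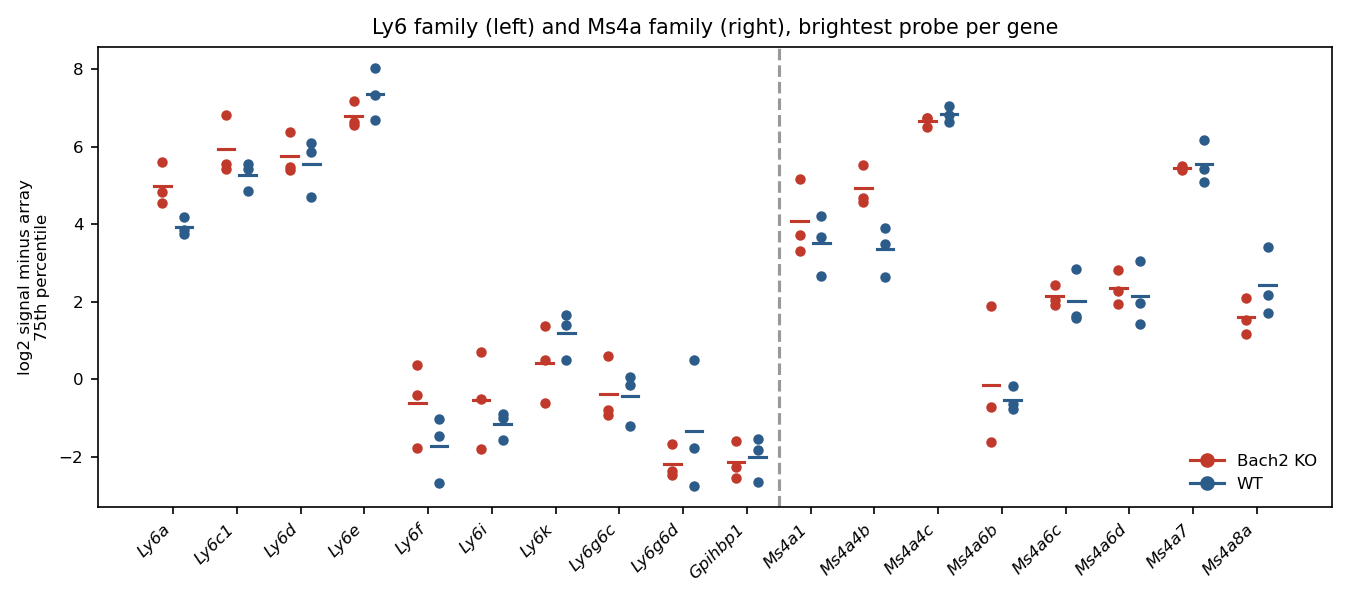
Log2 signal, less the 75th percentile of its array, for genes of the Ly6 family (left of the dashed line) and the Ms4a family (right of it), with knockout mice in red left of wild-type mice in blue and lines at the genotype means. Only genes well above background on at least 3 arrays are drawn. Ly6a and Ms4a4b are the genes whose genotypes are apart in this plot, and heights of different genes are not comparable.

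Genes of T and NK cells had higher means in knockout, as Ly6a and Ms4a4b did. Of 15 such genes with a probe, 14 had a higher and 1 a lower mean in knockout, 0 passed the adjusted limma test, and the median difference of the 13 at a level of 0 or more was 0.93. Of these 13, 12 had a higher mean, beside 38.2% of the 8024 genes, and 5 were higher without overlap, against 0.785% of the 8024 genes. The summed level of the 15 genes was 123.3 to 364.1 in knockout and 51.2 to 78.6 in wild type. The granule protease Gzmb had levels of 2.89, 4.23 and 2.45 in knockout and 0.64, 0.86 and -1.50 in wild type, a difference of 3.19 ± 0.80 (SE). Gzma, another protease of cytotoxic granules, differed by 1.94 ± 0.72 (SE). Since T cells also carry Ly6C and Sca-1, these values stand beside those of Ly6c1 and Ly6a, and their part in them was not tested.

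Patrolling monocyte genes, of which 14 of 14 had a probe, had a higher mean in knockout in 8 and a lower one in 6, with 0 past the adjusted limma test and a median difference of 0.09 over 13 genes. Cx3cr1, the fractalkine receptor of these cells, had levels of -1.56, 1.91 and 2.34 in knockout and 0.45, 3.10 and 1.53 in wild type, a difference of -0.80 ± 1.04 (SE). It was low in knockout replicate 1 as F13a1 was, and its column differences were -2.01, -1.19 and 0.80. Spn, which encodes CD43, differed by 0.58 ± 0.68 (SE), and Itgal, the integrin chain CD11a, by 0.55 ± 0.64 (SE).

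Transcription factors of the monocyte lineage were split 5 and 5 between higher and lower means in knockout, with 0 past the adjusted limma test and a median difference of 0.06 over the 8 at a level of 0 or more. Spi1, which encodes PU.1, had levels of -1.33, -1.30 and -0.99 in knockout and -1.26, -1.50 and 1.04 in wild type. The difference was -0.63 ± 0.76 (SE), and wild-type replicate 3 alone stood apart: without it the difference was 0.17. Irf8, which steers progenitors to the monocyte and dendritic cell lineages, differed by -0.32 ± 0.62 (SE), Klf4, a factor that Ly6C-high monocytes need, by 0.26 ± 0.80 (SE) and Zfp36 by 0.58 ± 1.01 (SE).

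Of 12 genes for chemokine and growth factor signals to monocytes, 5 had a higher and 7 a lower mean in knockout, 0 passed the adjusted limma test, and the median difference of the 3 at a level of 0 or more was -0.30. Ccl2, the main ligand of Ccr2, had levels of -1.93, -1.47 and 0.03 in knockout and -5.14, -1.69 and -1.39 in wild type, a difference of 1.61 ± 0.99 (SE). It was well above background on 3 knockout and 2 wild-type arrays, and without wild-type replicate 1, whose value is the lowest, the difference was 0.41. Ccl8, another monocyte chemokine, had levels of -4.61, -2.16 and -1.79 in knockout and -5.07, -5.57 and -4.36 in wild type. It was well above background on 2 knockout arrays, not on that of knockout replicate 1, and on 0 wild-type arrays (limma adjusted p = 1.0). For a floor, each wild-type level was raised to that of the dimmest probe well above background on its array, where it was lower. The knockout mean log2 level then exceeded the wild-type mean by a 1.38-fold ratio. That ratio is no lower bound, since the knockout mean includes the low value of replicate 1. Tnf differed by -1.11 ± 0.98 (SE) but was well above background on only 1 knockout and 2 wild-type arrays, and Il1b, the gene of interleukin-1 beta, differed by -0.30 ± 0.74 (SE).

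The partners of Cd14 in endotoxin sensing had lower means in knockout in 11 of 13 genes, with 0 past the adjusted limma test. Of the 8 at a level of 0 or more, 7 were lower, beside 61.8% of the 8024 genes at that level. The median difference of these 8 was -0.14, beside -0.10 for all genes at that level. Tlr4, the endotoxin receptor, differed by -0.12 ± 0.70 (SE) and its accessory protein gene Ly96 by -0.11 ± 0.67 (SE). Tirap, an adaptor between Tlr4 and Myd88, had levels of -0.14, -0.16 and -0.25 in knockout and 0.32, 0.75 and 0.63 in wild type. These did not overlap, as for 1.56% of the 8024 genes lower in knockout, and the difference was -0.75 ± 0.60 (SE). Irf3 differed by -0.36 ± 0.61 (SE).

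Receptors and partners of fibronectin, thrombospondin-1 and versican had higher means in knockout in 10 of 18 genes and lower in 8, with 0 past the adjusted limma test and a median difference of -0.11 over the 10 genes at a level of 0 or more. Of these 10, 4 were higher and 6 lower, while 5 of the 10 genes with a higher mean were well above background on 0 of 6 arrays. Cd36, a receptor of thrombospondin-1, differed by 0.59 ± 0.85 (SE) and the integrin chain gene Itgav by 0.79 ± 0.94 (SE), with probes that differed in sign and 2 knockout arrays well above background. The genes of coagulation and fibrin cross-linking, the substrate of factor XIII among them, were mostly near background: 9 of 15 were well above background on 0 of 6 arrays, 8 had a higher and 7 a lower mean in knockout, and 0 passed the adjusted limma test. Thbd, the thrombin receptor thrombomodulin, differed by 1.32 ± 0.77 (SE) and was well above background on 2 knockout arrays and 1 wild-type array. Of the 9 genes near background, 6 had a higher mean, and of the 3 at a level of 0 or more, 1 was higher and 2 lower.

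The brightest probes of the 16 red pulp macrophage genes were all well above background on at least 3 arrays. For 15 of them the level averaged 0 or more. Spic, the transcription factor these macrophages need, had levels of 5.35, 5.58 and 6.00 in knockout and 5.53, 6.15 and 6.49 in wild type. All 16 red pulp macrophage genes had a lower mean in knockout, beside 61.8% of the 8024 genes, 0 passed the adjusted limma test, and the median difference over 15 was -0.41. The centred mean of these 15 genes was -0.26, -0.12 and -0.27 on the knockout arrays and -0.30, 0.26 and 0.69 on the wild-type arrays, so wild-type replicate 1 lay below every knockout mouse and replicate 3, the female, lay highest. Relative to all genes, their median was -0.32 as reported and -0.04 without wild-type replicate 3. The iron exporter gene Slc40a1 differed by -0.74 ± 0.62 (SE) without overlap, as for 1.56% of the 8024 genes lower in knockout. It was the only 1 of the 15 genes without overlap. Cd163, the hemoglobin scavenger receptor, differed by -1.30 ± 0.78 (SE), with 1 knockout and 3 wild-type arrays well above background. Without wild-type replicate 3 these differences were -0.47 for Slc40a1 and -0.71 for Cd163. The summed level of this list was 1226.6 to 1681.3 in knockout and 1433.9 to 2811.3 in wild type. That of the 8 marker genes was 277.2 to 414.3 in knockout and 249.9 to 361.5 in wild type. Bright probes weigh most in a sum, in the marker list those of Plac8 and Ms4a4c by mean level. Sums of different lists are therefore not comparable.

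Lists for further cell types of the spleen stand beside the markers as follows, and their part in the markers' values was not tested. Neutrophil genes had a higher mean in knockout in 11 of 13, with summed levels of 93.2 to 414.8 in knockout and 55.3 to 256.5 in wild type, and the granule protein genes Ltf and Ngp differed by 1.64 ± 0.76 (SE) and 1.35 ± 0.69 (SE). Endothelial genes, whose cells also carry Ly6C, were split 6 and 6 (1 higher and 4 lower among the 5 at a level of 0 or more), with summed levels of 31.2 to 43.4 in knockout and 25.4 to 63.3 in wild type, and the growth factor receptor genes Kdr and Flt1 differed by -0.42 ± 0.69 (SE) and 0.36 ± 0.90 (SE). Fibroblast genes, whose cells make fibronectin, summed to 1.53 to 2.21 in knockout and 1.56 to 2.06 in wild type, and Col1a1, the collagen chain that defines them, was well above background on 0 of 6 arrays. The stromal genes Ccl19 and Acta2 differed by -0.36 ± 0.71 (SE), with probes that differed in sign, and -0.38 ± 0.67 (SE), with 2 knockout arrays well above background for Acta2. B cell genes had a higher mean in knockout in 8 of 10 and a lower one in 2, and Cr2, the complement receptor of mature B cells, differed by -1.26 ± 0.65 (SE) and Fcer2a, which encodes CD23, by 0.80 ± 0.77 (SE). Dendritic cell genes had a higher mean in 5 and a lower one in 9 of 14, and Klk1 and Cox6a2, both known from plasmacytoid dendritic cells in mouse, differed by -1.50 ± 0.63 (SE) and -1.59 ± 0.65 (SE). In each of these 5 lists 0 genes passed the adjusted limma test. Of the 8024 genes at a level of 0 or more, 38.2% had a higher mean in knockout. At that level, 6 of 7 neutrophil, 4 of 5 B cell and 3 of 11 dendritic cell genes did.

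**Figure D5:**
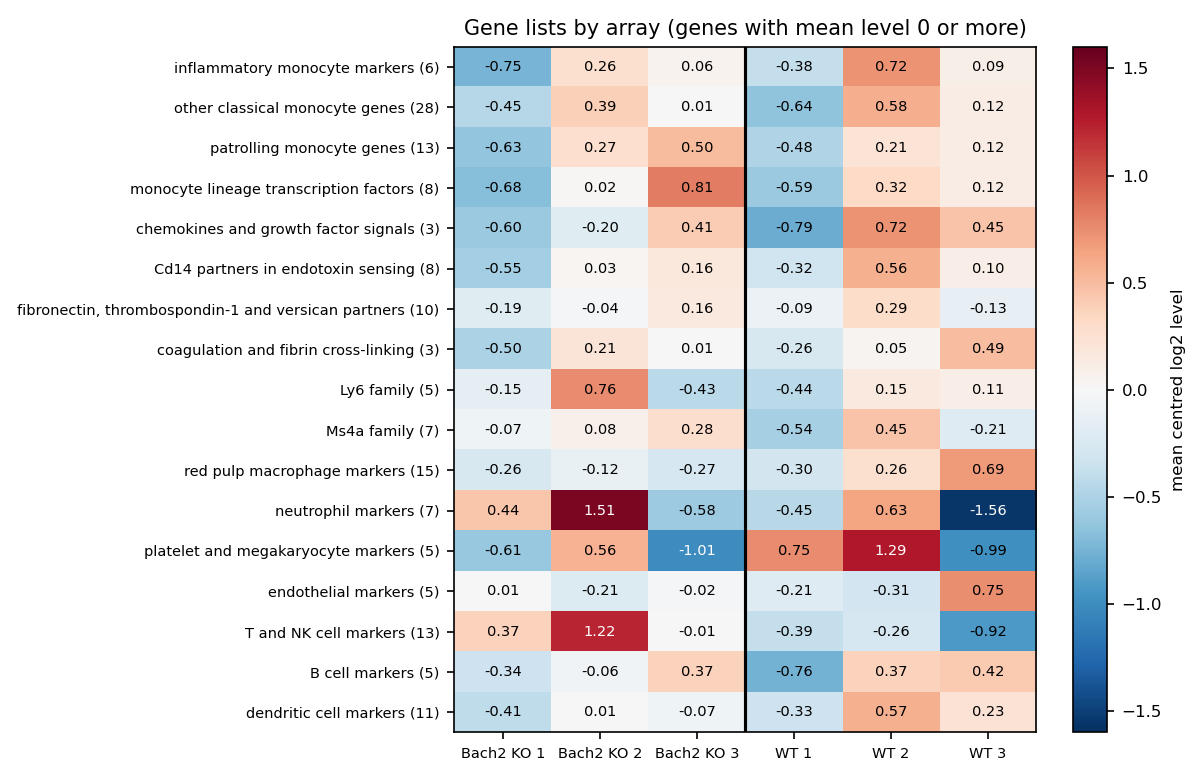
Mean log2 level of each gene list on each array, after each gene was centred on its mean over the 6 arrays, with the number of genes that averaged 0 or more in brackets. Knockout arrays are left of the black line and wild-type arrays right of it. The inflammatory monocyte markers are lowest on knockout replicate 1 (-0.75) and highest on wild-type replicate 2 (0.72), with F13a1 at -2.56 and 2.36 there, and T and NK cell genes are higher on all knockout arrays than on all wild-type arrays.

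The centred mean level of the markers, over the 6 genes at a level of 0 or more, was -0.75, 0.26 and 0.06 on the knockout arrays and -0.38, 0.72 and 0.09 on the wild-type arrays. Its differences within array columns 1 to 3 were -0.36, -0.46 and -0.03. F13a1, whose centred level was -2.56 on knockout replicate 1 and 2.36 on wild-type replicate 2, carried much of this. Without F13a1, a choice made after seeing the data, the mean of the other 5 genes was -0.39, 0.37 and -0.0064 in knockout and -0.47, 0.39 and 0.10 in wild type, with column differences of 0.09, -0.02 and -0.10. Wild-type replicate 1 was then the lowest array. For the other classical monocyte genes the centred mean was -0.45, 0.39 and 0.01 in knockout and -0.64, 0.58 and 0.12 in wild type, so replicate 1 was lowest and replicate 2 highest within each genotype in both lists. For the 7 members whose brightest probe was well above background on all 6 arrays, which leaves out Thbs1 and Ly6c2, the genes nearest to each over the 6 arrays, by the root-mean-square difference of centred levels among 9519 named genes, differed from member to member. Nearest to Ly6c1 were Pex10 (0.17) and Lime1 (0.19), to Plac8 Mitd1 (0.07) and Ssu72 (0.11), and to Fn1 Fosl2 (0.12) and Cnrip1 (0.14). Nearest to Vcan were Svep1 (0.09) and Zfp579 (0.11), to Ms4a4c Eef2 (0.04) and Sp110 (0.05), and to Cd14 Arap1 (0.04) and Gfra2 (0.07). F13a1 had no gene as near, with Tmem119 at 0.61 and the patrolling monocyte gene Cx3cr1 at 0.65, and none of the 7 was among the nearest genes of another. This distance is not scaled by the spread of a gene, which was widest for F13a1, so the distances of different members are not comparable.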

How the data were processed

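RNA of sorted red pulp macrophages was measured on 6 single-colour Agilent arrays, 3 of Bach2 knockout and 3 of wild-type mice. Per the labels' protocols, the RNA was amplified and then dye-labelled. The scanner output as deposited gives spot intensity values from Agilent Feature Extraction, for which the submitters' processing notes name version 9.1 and the file headers version 10.7.3.1. The headers record that background was subtracted from the processed intensity and that it was detrended, array by array. A deposited table of log2 values of 279 probes by the authors holds no member probe, is centred on each probe's median, and has column medians of -0.29, -0.23 and -0.26 for knockout and 0.32, 0.34 and 0.28 for wild type. How it was filtered is not known in full.

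Of 62976 spots on an array, 59305 were no controls. Outlier spots, 141 to 283 on an array, were treated as missing, and spots of a probe were averaged, which left 55681 probes. Accessions were named without version through a RefSeq table of mouse assembly GRCm38.p6, which named 26413 probes (20018 genes). The array design uses an older assembly, so no probe coordinates are given; those of the promoter windows are RefSeq's on GRCm38.p6. Values were log2 processed intensity minus each array's 75th percentile. Every probe was kept and knockout was set against wild type in limma 3.58.1 (lmFit, eBayes; R 4.3.3), with Benjamini-Hochberg adjustment over all probes at 0.05. Errors of differences are limma's moderated standard errors. The number of arrays, 3 per genotype, limits the precision. On simulated data of this comparison with 200 of 55681 probes changed, 0 were called at 2-fold, 0 at 4-fold and 160 at 16-fold. Unchanged probes gave 14 false calls at 16-fold and 0 at 2-fold and 4-fold.

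The members and the 17 gene lists were chosen with earlier results of these data known. A list is described by the brightest probe of each gene, by counts and by its median over genes whose level averaged 0 or more, a minimum set after the data were seen. A summed level adds the linear signals of a list's genes in units of the array's 75th percentile. Named were all members, Bach2, the Ly6 and Ms4a families, the 2 genes of each list with the smallest limma p among probes well above background on at least 3 arrays (1 of these is not reported here), the 2 nearest genes of each member, and genes that define a cell type or act with a member. Ccl8 was named after its values were seen.

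Replicates are separate mice, and their numbers follow the order of the records. The labels give no shared replicate number, but each array column held 1 mouse of each genotype. Deviations from the genotype means were correlated over probes well above background on at least 3 arrays and without a missing value. Within columns 1 to 3 they correlated by 0.64, 0.15 and 0.27, though knockout replicate 3 correlated as well with wild-type replicate 2 (0.29). A fit with the column as a block is an alternative. The other alternatives changed normalization, background correction, probe filter, probes per gene and variance trend, or left out mice, among them the knockout and wild-type mice (replicate 3 of each) whose titles share a tag, P6, of unstated meaning.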

Additional observations from a re-analysis of the deposited data

How the results depend on the processing

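Over 14 alternatives, 199 values of the 15 member probes were recomputed: 183 kept the reported direction, 16 turned, and 0 passed an adjusted p of 0.05. The probe filter, the choice of 1 probe per gene and the variance trend leave a difference as it is. The column block changed it only for Ms4a4c A_66_P106388, to 0.33. Apart from that value, the values under these settings kept their direction by construction. The limma calls over all probes were 0 as reported, 2 with normexp and 3 with an intensity trend in the variance, and 0 in the other 12; none was a member. With the array column as a replicate block, the calls were 0 too, and no member passed. Normexp was run on median spot signals and chosen after seeing the data, since the files hold no mean signals for the planned version, which was not run. The differences that turned were those of Plac8 A_55_P1962305 (-0.0049 without wild-type replicate 1), F13a1 A_55_P2186125 (-0.0083 with quantile normalization, -0.35 without wild-type replicate 2), Fn1 (0.20 without wild-type replicate 2, 0.24 without knockout replicate 1), Vcan A_55_P1960208 (0.014 centred on the array median, 0.40 without wild-type replicate 1, 0.22 without knockout replicate 3, 0.19 without both P6 mice), Vcan A_52_P1044655 (-0.15 with quantile normalization, -0.52 without wild-type replicate 2, -0.05 without knockout replicate 1, -0.07 without knockout replicate 2), Ms4a4c A_55_P2135980 (0.22 with quantile normalization, 0.024 without both P6 mice) and Thbs1 (-0.22 with normexp). Leaving out 1 mouse at a time moved Plac8 A_55_P1962305 between -0.0049 and 0.50, F13a1 A_55_P2186125 between -0.35 and 0.78, Vcan A_52_P1044655 between -0.52 and 0.66, F13a1 A_51_P507801 between -2.25 and -0.77, Vcan A_55_P1960202 between -1.82 and -0.78 (-0.79 with normexp), Ly6c1 A_55_P2064771 between 0.22 and 0.92, Ly6c1 A_55_P1961499 between 0.38 and 0.87, Fn1 between -0.82 and 0.24, Vcan A_55_P1960208 between -0.63 and 0.40 and Cd14 between -0.73 and -0.26. The median of the 3 coagulation genes, relative to all genes, was -0.32 as reported and 0.35 without both P6 mice; the cause was not tested. Relative to all genes, the medians of the red pulp macrophage, neutrophil, platelet, T and NK cell and Ms4a lists kept their sign under each alternative run but not their size: leaving out 1 mouse moved them between -0.52 and -0.04, 0.37 and 1.79, -1.43 and -0.18, 0.62 and 1.55, and 0.02 and 0.50 in that order, and the red pulp macrophage median came to -0.0049 once the 2 P6 mice were left out and -0.05 under quantile normalization. Those of the other lists turned under at least 1 (fibroblast genes had no member at a level of 0 or more and no median). The scaling moved the median difference of all probes, from 0.09 as reported to 0.0026 with quantile normalization, 0.23 centred on the array median and -0.07 with normexp. Unadjusted calls were 492 as reported (269 higher, 223 lower), 916 with quantile normalization (414 higher, 502 lower), 1110 centred on the array median (865 higher, 245 lower), 310 among probes well above background on at least 3 arrays, 266 with 1 probe per gene, 893 to 1106 without wild-type replicate 1, 2 or 3 or knockout replicate 3 (225 higher and 717 lower without wild-type replicate 2, 819 higher and 287 lower without knockout replicate 3), and 1454 without both P6 mice (1148 higher, 306 lower), while the column block gave 382 higher and 147 lower. Probes not well above background limit what the arrays show of Thbs1, Vcan and the second F13a1 probe.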
